A study of Mus musculus with 12 samples.

Results

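Cytosolic ribosomal protein genes encode the protein parts of the ribosomes that translate mRNA in the cytoplasm. They were taken as all protein coding genes of the count table whose symbol begins with Rpl, Rps or Rplp and a digit. The Rps6k kinases and symbols that contain -ps were left out. The rule gave 85 of 56350 genes. Of these, 43 encode proteins of the large subunit, 30 encode proteins of the small subunit and 3 encode the P stalk. Another 8 are paralogs or retrocopies (Rpl10l, Rpl39l, Rpl3l, Rpl36al, Rps27l, Rps27rt, Rpl22l1 and Rpl7l1). The remaining gene, Rps19bp1, matches the rule by its name and encodes a protein that binds Rps19. Rpsa, Fau and Rack1 also encode ribosomal proteins and fall outside the name rule, and their values are given separately.

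A ribosome needs 1 copy of nearly every ribosomal protein, so these genes are usually expressed together and at high level in growing cells. Their mRNAs begin with a run of pyrimidines, the terminal oligopyrimidine (TOP) motif, through which mTORC1 and its target LARP1 control their translation. Ribosomal protein that is left unassembled can bind Mdm2 and stabilise p53. In bone marrow, inherited loss of 1 copy of genes such as Rps19, Rpl5 or Rpl11 causes Diamond-Blackfan anaemia, and erythroid precursors are the cells most affected.

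The RNA came from bone marrow cells of 12 Shp2E76K/+;LysM-Cre+ mice of strain C57Bl/6J, aged about 12 to 14 weeks, males and females. The allele encodes the E76K form of the phosphatase Shp2, which drives a mouse form of juvenile myelomonocytic leukaemia. LysM-Cre is expressed in myeloid cells, so cells of other lineages in the marrow need not carry the active allele. All 4 groups of 3 mice had this genotype, and no group without it was analysed here. The groups were vehicle, PD-901, 5-azacitidine and both drugs together (labelled Combo). PD-901 (PD0325901) inhibits MEK and was given by gavage at 5 mg/kg in 20 doses. 5-azacitidine is built into DNA in place of a cytosine nucleoside and reduces its methylation. It was injected into the peritoneum at 5 mg/kg in 5 doses. Dosing lasted 4 weeks, and the study asked how the drugs act together. Only RNA with an integrity number above 7 was used. The labels describe the replicates as matched for age and sex but do not say which mice were matched. They give no sex and no batch for a single mouse, and replicate numbers only name the mice.

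The libraries held between 15356919 and 27148190 counts, and 624809 to 1226546 of these fell on the 85 genes. Levels are given as CPM, the count of a gene scaled to library size with factors from the trimmed mean of M values (TMM). The filter on low counts kept 84 of the 85 genes among the 17475 genes tested. The other one, Rpl10l, a retrocopy of the X-linked Rpl10, had 0 counts in all 12 libraries. A mean of 100 CPM or more over the 12 libraries was reached by 74 genes. The members lie on 19 chromosomes, 14 of them on the most filled one, and Rpl10, Rps4x, Rpl36a and Rpl39 are X-linked. Pseudogene rows with the same kind of name, 309 in number, took only 0.0157% to 0.0315% of the counts of a library.

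Ribosomal protein genes had their lowest levels in vehicle mice and higher mean levels in all 3 treated groups, while single mice of the groups overlapped. Their share of all counts was 3.29%, 3.92% and 4.49% in the 3 vehicle mice. It was 4.29%, 4.72% and 3.97% with PD-901, and 4.27%, 5.04% and 5.27% with 5-azacitidine. With the combination it was 5.90%, 4.24% and 5.12%. The means were 3.90% ± 0.602, 4.33% ± 0.376, 4.86% ± 0.524 and 5.08% ± 0.830 (SD, n = 3 mice each). Every treated group thus had at least 1 mouse below the highest vehicle mouse.

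The genes moved largely together from mouse to mouse. For each of the 74 genes at 100 CPM or more, the log2 CPM of a mouse was set against the mean log2 CPM of the vehicle mice. The median of these differences was -0.19, 0.02 and 0.17 in the vehicle mice, and 0.23, 0.29 and -0.01 in the PD-901 mice. It was 0.13, 0.42 and 0.55 in the 5-azacitidine mice and 0.49, 0.06 and 0.26 in the combination mice. Within a mouse the interquartile range of the genes was 0.0703 to 0.227 on the same log2 scale. It was narrowest in the vehicle mice, from whose own mean the differences were taken. In vehicle mouse 2, PD-901 mouse 3, 5-azacitidine mouse 1 and combination mouse 2 it was wider than the distance of the median from 0. Of the 84 genes tested, 66 were lowest in vehicle mouse 1, while 51 were highest in 5-azacitidine mouse 3 and 21 in combination mouse 1. Small and large subunit genes kept together: in combination mouse 3, where their medians lay farthest apart, they were 0.22 and 0.28. The order of the group means was shared as well. Among the 74 genes, 65 had their highest mean with 5-azacitidine and 9 with the combination, and 71 had their lowest mean with vehicle.

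**Figure D1:**
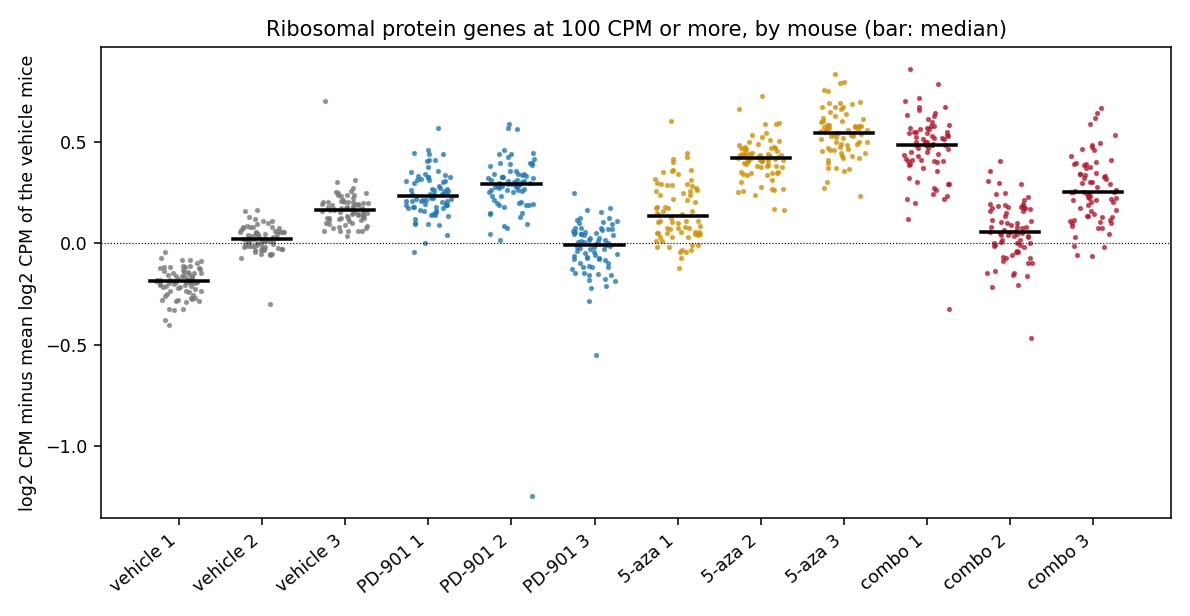
Each point is 1 of the 74 ribosomal protein genes at 100 CPM or more, plotted for each of the 12 mice as log2 CPM minus the mean log2 CPM of the 3 vehicle mice; the bar is the median. The cloud moves up or down largely as a whole, from a median of -0.19 in vehicle mouse 1 to 0.55 in 5-azacitidine mouse 3. The single low point in PD-901 mouse 2 is Rpl29.

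Other features of the libraries differed between the same mice. Lyz2, the lysozyme gene into which LysM-Cre is inserted, was at 172 and 147 CPM in vehicle mice 1 and 2 and at 44.9 and 55.8 CPM in combination mice 1 and 2. In the other 8 mice it was between 699 and 4177 CPM. Xist, transcribed from the inactive X chromosome of females, was at 138 to 724 CPM in the vehicle mice and at 1.73 to 7.13 CPM in the combination mice. The treatment and the level of Xist therefore cannot be told apart in that comparison. With PD-901 Xist was at 1.19, 343 and 148 CPM, and with 5-azacitidine at 1.32, 237 and 0.555 CPM. The comparisons of the single drugs with vehicle were thus uneven in Xist as well, although the labels call the replicates matched for sex. The share of mitochondrial counts was 1.16% to 1.29% in vehicle mice and 1.75% to 1.81% in combination mice. The summed level of 16 erythroid markers was 1876 to 2972 CPM with vehicle, 3847 to 5375 with PD-901, 4102 to 4400 with 5-azacitidine and 3128 to 9432 with the combination. The 9 monocyte markers summed to 3850 to 4784, 2544 to 3156, 2252 to 3045 and 1807 to 3407 CPM in that order. The sum of 8 primary granule genes of early neutrophils was 4833 to 5642, 5512 to 5949, 5993 to 10785 and 6313 to 9525 CPM for these groups. The 12 mature neutrophil markers summed to 6912 to 14429 CPM with vehicle and to 3205 to 5242 with the combination, and 12 markers of B cell precursors to 498 to 565 and to 101 to 258 CPM. None of the marker genes of these 5 lists was at 0 in any library. In bulk marrow, fewer cells of a type and less RNA per cell cannot be told apart. The part of these features in the levels of ribosomal protein genes was not tested.

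No ribosomal protein gene was called with PD-901 alone. Of the 84 tested genes, 80 had a positive log2 change against vehicle, with a median of 0.18 (1.13-fold), beside a median of 0.01 over all 17475 genes. None passed an adjusted p of 0.05 in edgeR's quasi-likelihood test in either direction. The share of all genes called was 0% higher and 0% lower, so a count of 0 is no feature of these genes. At an unadjusted p below 0.05 there were 3 of 84 genes (3.57%, against 4.88% of all genes), and neither DESeq2 nor limma-voom called any. The lowest p belonged to Rps27l, Rpl36, Rpl41, Rpl39l and Rpl29. Rpl41, the smallest ribosomal protein, was at 187, 273 and 282 CPM with vehicle and at 332, 361 and 275 CPM with PD-901. The groups overlapped, since PD-901 mouse 3 lay below vehicle mouse 3. Its log2 change was 0.38 ± 0.18 (SE, adjusted p = 0.96 by edgeR). The 3 PD-901 mice lay above the 3 vehicle mice for 2 genes and below them for 0, against 6.83% and 5.93% of all genes. Without vehicle mouse 1 the median log2 change of the 84 genes was 0.09, and without PD-901 mouse 2 it was 0.12. It was 0.25 without vehicle mouse 3 and 0.25 without PD-901 mouse 3. Without the 4 libraries lowest in Lyz2 (vehicle mice 1 and 2 and combination mice 1 and 2) it was 0.03, with 57 of 84 genes positive, beside 0.04 over all genes. That fit has 1 vehicle mouse and 1 combination mouse, which are assumed to vary like the mice of the other groups.

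With 5-azacitidine the group means were above those of vehicle for nearly all of these genes, while single mice overlapped and again no gene passed the adjusted threshold. Against vehicle 83 of the 84 log2 changes were positive. Their median was 0.37 (1.29-fold), with quartiles of 0.31 and 0.44, while the median of all genes was -0.01. Its calls were 0 higher and 0 lower, and 0.00572% and 0% of all genes were called. An unadjusted p below 0.05 was found for 51 of 84 genes (60.7%), against 15.3% of all genes. At 100 CPM or more it was found for 48 of 74 members (64.9%), against 23.4% of the 2308 other genes. DESeq2 called 5 of them higher (Rpl13a, Rpl30, Rpl41, Rps23 and Rps27l), against 1.67% of all genes, and limma-voom called 0. The 3 treated mice lay above the 3 vehicle mice for 40 of the 84 genes and below them for 0, against 10.8% and 9.77% of all genes. At 100 CPM or more the treated mice lay above for 36 of 74 members and for 430 of the 2308 other genes. They lay below for 0 and 232. The 84 genes moved together within each mouse, so they are not independent observations of the drug. Without the 4 libraries lowest in Lyz2 the median was 0.23 and 78 of 84 genes were positive, beside 0.02 over all genes.

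Rpl30, a large subunit protein, was among the members with the larger changes. It was at 182, 190 and 210 CPM with vehicle and at 264, 307 and 327 CPM with 5-azacitidine, with no overlap. The log2 change was 0.63 ± 0.17 (SE, adjusted p = 0.137 by edgeR). Rps23, a protein of the decoding centre in the small subunit, was at 349, 396 and 432 CPM with vehicle and 522, 529 and 574 CPM with 5-azacitidine. These groups were also separate, with a log2 change of 0.47 ± 0.15 (adjusted p = 0.167 by edgeR). Rps6, the small subunit protein that S6 kinase phosphorylates, was at 582, 631 and 724 CPM with vehicle and at 849, 819 and 854 CPM with 5-azacitidine. Its log2 change was 0.38 ± 0.15 (adjusted p = 0.235 by edgeR). The smallest changes were those of Rpl10 (0.19), Rpl24 (0.15), Rpl23a (0.12), Rps10 (0.05) and Rpl3l (-0.06). Rpl24 and Rps10 rest on few counts, 14 to 78 and 105 to 284 per library. The signs of Rpl24, Rps10 and Rpl3l turned when single mice were left out.

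With the combination edgeR called 4 ribosomal protein genes higher and 0 lower. Against vehicle, 5.78% of all genes were called higher and 7.98% lower, so 4 of 84 is no larger a share than among all genes. DESeq2 called 12 of 84 higher, against 8.33% of all genes, and limma-voom called 8, against 5.69%. Rps2, Rpl3, Rpl13a and the paralog Rps27l passed. Positive log2 changes were found for 81 of 84 genes. Their median was 0.28 (1.22-fold), with quartiles of 0.18 and 0.37, beside a median of 0.01 over all genes and of -0.06 over the 2308 other genes at 100 CPM or more. Without combination mouse 1 the median was 0.14, with 72 genes positive, and without combination mouse 2 it was 0.38. An unadjusted p below 0.05 was found for 24 of 84 genes (28.6%), against 27.5% of all genes. At 100 CPM or more it was found for 20 of 74 members (27.0%), against 52.6% of the 2308 other genes. At that level edgeR called 2 of 74 members and 266 of the 2308 other genes higher. The combination mice lay above the vehicle mice for 22 genes and below them for 1 (Rpl3l), against 16.1% and 15.9% of all genes. At 100 CPM or more they lay above for 18 of 74 members and for 549 of the 2308 other genes. They lay below for 0 and 685. Of the large subunit genes 2 of 43 were called and the median log2 change was 0.30. Of the small subunit genes it was 1 of 30, at a median of 0.24, and of the P stalk 0 of 3.

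Rps2, at the mRNA entry site of the small subunit, was at 1185, 1302 and 1492 CPM with vehicle and at 2402, 1691 and 2096 CPM with the combination. It was at 1818, 1800 and 1428 CPM with PD-901 and at 1561, 1930 and 2293 CPM with 5-azacitidine. The combination and vehicle mice did not overlap, and its fold was 1.56 (log2 change 0.64 ± 0.18 SE, adjusted p = 0.0275 by edgeR). The PD-901 mice overlapped with vehicle, and the 5-azacitidine mice did not.

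Rpl3, a core protein near the peptidyl transferase centre, was at 774, 850 and 1037 CPM with vehicle, 985, 1148 and 913 CPM with PD-901, 1117, 1220 and 1265 CPM with 5-azacitidine and 1321, 1166 and 1352 CPM with the combination. All combination and all 5-azacitidine mice lay above the highest vehicle mouse. Against vehicle its log2 change was 0.53 ± 0.15 (SE) with the combination (adjusted p = 0.026) and 0.44 ± 0.15 with 5-azacitidine (adjusted p = 0.187), both by edgeR.

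Rpl13a, a large subunit protein that also takes part in translational silencing of inflammatory mRNAs, was the member with the lowest p. It was at 25.4, 34.7 and 34.1 CPM with vehicle, 40.3, 34.4 and 36.4 CPM with PD-901, 44.3, 47.5 and 44.6 CPM with 5-azacitidine and 56.5, 44.1 and 53.5 CPM with the combination. The log2 change of the combination against vehicle was 0.71 ± 0.15 (SE, adjusted p = 0.00851 by edgeR), and it was 0.47 ± 0.15 against PD-901 (adjusted p = 0.0755). It was the only member called in the joint test for any difference among the 4 groups (adjusted p = 0.0323 by edgeR), which called 6.96% of all genes. Rpl13a shares 29.4% of its exon bases with another gene model on the same strand, Gm45713, which had 0 counts. The sources used here do not say how reads over shared exons were counted, so its level is uncertain.

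Rps27l, the paralog of Rps27 and a p53 target, was at 26.0, 27.0 and 21.9 CPM with vehicle, 32.0, 44.8 and 26.4 CPM with PD-901, 39.5, 46.1 and 40.5 CPM with 5-azacitidine and 46.2, 36.2 and 39.8 CPM with the combination. The combination and 5-azacitidine mice were all above the vehicle mice, with log2 changes of 0.71 ± 0.19 (SE, adjusted p = 0.0213 by edgeR) and 0.75 ± 0.19 (adjusted p = 0.13). Rps27 itself was at 253, 316 and 314 CPM with vehicle and at 354, 284 and 314 CPM with the combination. These values overlap, and the log2 change was 0.11 ± 0.15 (adjusted p = 0.716 by edgeR).

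**Figure D2:**
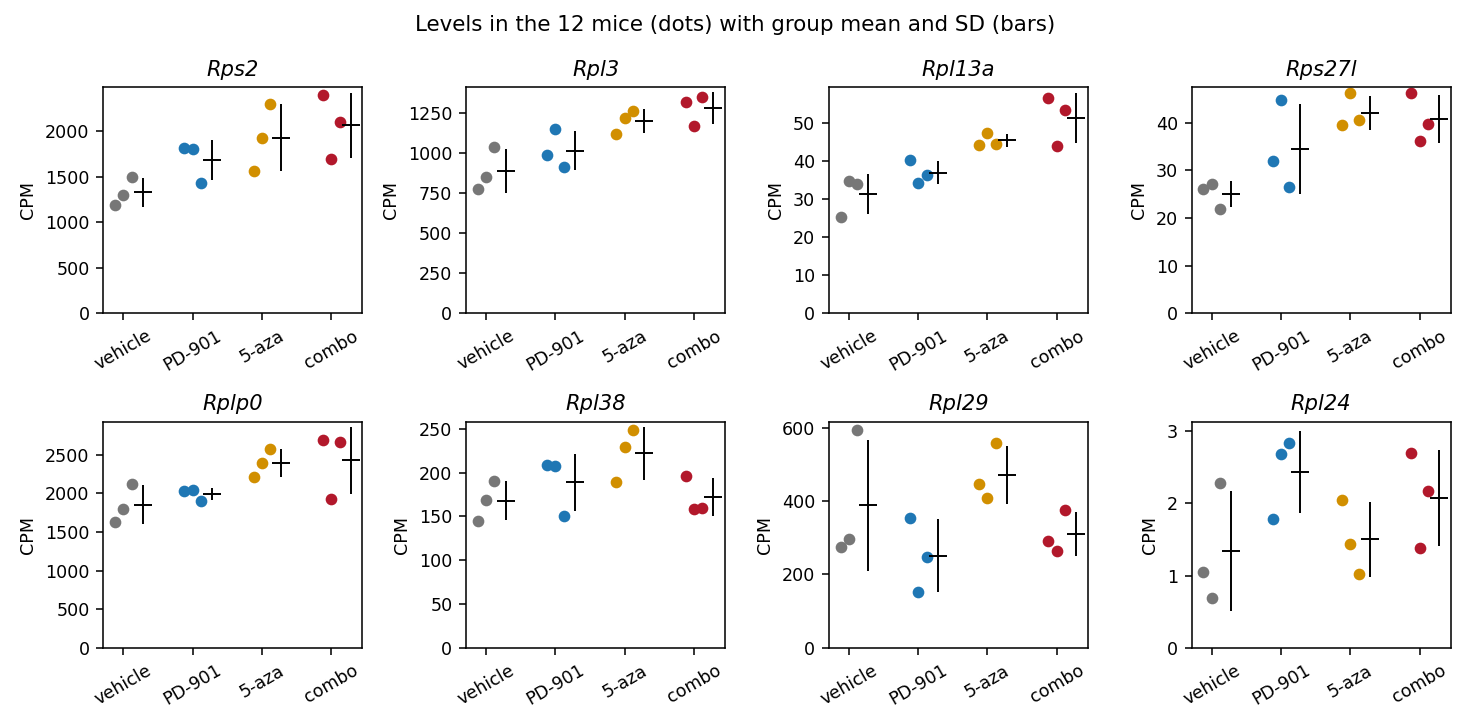
CPM of 8 genes in the 12 mice, with group means and SD as bars; each vertical axis starts at 0. Rps2, Rpl3, Rpl13a and Rps27l, called in the combination, have all 3 combination mice above vehicle, while Rplp0, Rpl38, Rpl29 and Rpl24 overlap.

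The count of 4 calls rested on single mice. It was 1 without vehicle mouse 1, without combination mouse 1 or without combination mouse 3, with Rpl13a called in each. The shares of all genes called higher in these fits were 1.475%, 1.51% and 2.08%, also below the 5.78% with all mice. Without vehicle mouse 2 the count was 2, against 3.09% of all genes. Without combination mouse 2 it was 12, against 5.75% of all genes. Without the 4 libraries lowest in Lyz2 it was 0, against 1.47% of all genes, with a median log2 change of 0.09 and 61 of 84 genes positive. With the spread taken from the compared groups alone it was 3, and Rpl3 did not pass (adjusted p = 0.0556 by edgeR).

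The start sites of Rps2, Rpl13a and Rps27l, which were called, are shown with those of Rpl15, Rps6, Rpl38 and Rps27, which were not, since the TOP motif is the sequence that these mRNAs share. Each window runs from 30 bases before to 25 bases after a RefSeq start on GRCm38.p6, and capitals mark a C followed by at least 4 pyrimidines that begins within 5 bases of the start, on either side. Rps2 is at chr17:24720033-24720087 (plus strand), Rpl13a at chr7:45128721-45128775 (minus), Rps27l at chr9:66946056-66946110 (plus), Rpl15 at chr14:18270962-18271016 (minus), Rps6 at chr4:86857343-86857397 (minus), Rpl38 at chr11:114668550-114668604 (plus) and Rps27 at chr3:90213624-90213678 (minus).
Rps2: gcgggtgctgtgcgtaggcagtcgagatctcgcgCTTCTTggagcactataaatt
Rpl13a: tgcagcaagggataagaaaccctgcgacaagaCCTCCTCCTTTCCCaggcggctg
Rps27l: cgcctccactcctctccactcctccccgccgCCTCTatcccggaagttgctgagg
Rpl15: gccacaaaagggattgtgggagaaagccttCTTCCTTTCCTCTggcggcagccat
Rps6: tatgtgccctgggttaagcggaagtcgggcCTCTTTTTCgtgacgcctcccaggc
Rpl38: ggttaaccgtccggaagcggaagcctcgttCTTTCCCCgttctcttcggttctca
Rps27: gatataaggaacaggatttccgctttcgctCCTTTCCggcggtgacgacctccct

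The run of pyrimidines is 14 bases long in Rpl13a, 6 in Rps2 and 5 in Rps27l. Uncalled members carry it too, with 13 bases in Rpl15, 9 in Rps6, 8 in Rpl38 and 7 in Rps27. Of the 85 genes, 65 had a RefSeq window, and 30 of these (46.2%) had such a run, against 21.2% of the 27025 genes with a window. In 250 bases before to 50 after the start, on both strands, CCGGAAG, a core of ETS factor sites, was found in 38.5% of the members and 9.93% of all genes. AAGATGG, a core of YY1 sites, was found in 15.4% and 7.28%. The E box CACGTG was present in 9.23% and 8.09%, and TATAAA in 10.8% and 15.7%. These are matches of letters, not sites of binding.

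**Figure D3:**
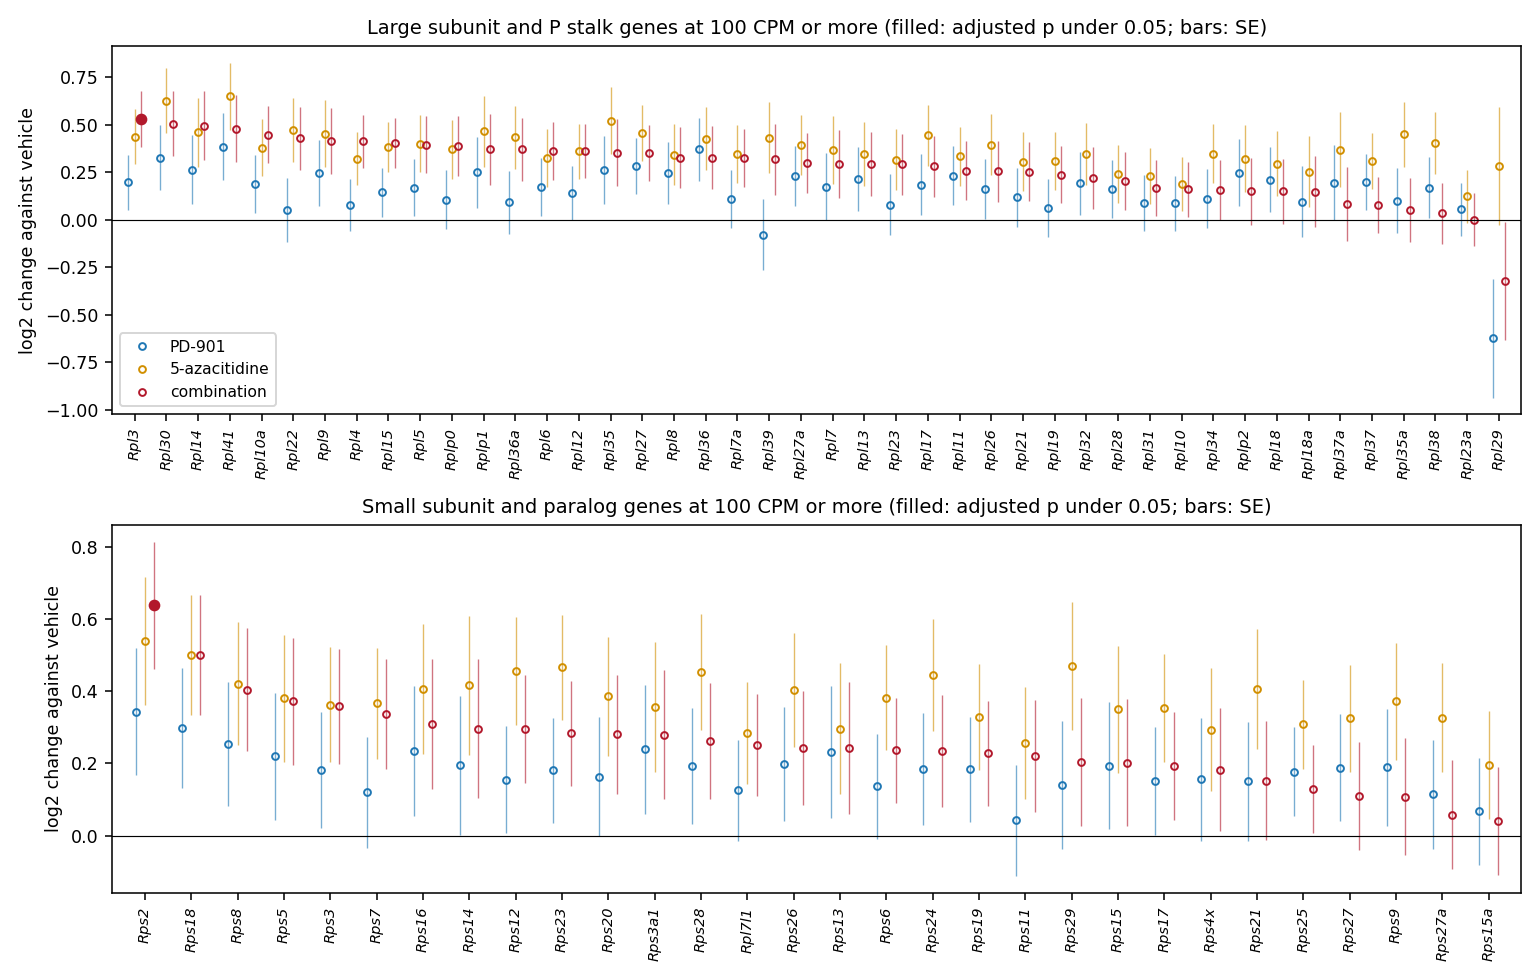
Log2 change against vehicle with its SE for the 74 genes at 100 CPM or more, in the 3 treated groups; filled points passed an adjusted p of 0.05. Nearly all points lie above 0, 5-azacitidine lies above the combination for most genes, only Rps2 and Rpl3 are filled, and Rpl29 lies apart below 0.

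Genes next to the threshold were Rpl15 (log2 change 0.40, adjusted p = 0.0515), Rps18 (0.50, adjusted p = 0.0586), Rpl4 (0.41, adjusted p = 0.0598), Rpl10a (0.45, adjusted p = 0.0607) and Rpl30 (0.51, adjusted p = 0.0624), all by edgeR. Rpl15, one of the large subunit genes mutated in Diamond-Blackfan anaemia, was at 287, 323 and 368 CPM with vehicle and at 450, 385 and 458 CPM with the combination. Its groups did not overlap. At the other end, Rpl38, which has been tied to translation of Hox mRNAs, was at 145, 168 and 191 CPM with vehicle and at 197, 159 and 160 CPM with the combination. The log2 change was 0.03 ± 0.16 (SE, adjusted p = 0.936 by edgeR), and with 5-azacitidine, at 189, 229 and 248 CPM, it was 0.40 ± 0.16 (adjusted p = 0.254). Rpl23a (0.00) and Rps15a (0.04) were also near 0 with the combination, and the signs of these 3 changes turned when single mice were left out.

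Rpl29 did not follow the other genes. It was at 275, 295 and 594 CPM with vehicle, 353, 153 and 249 CPM with PD-901, 445, 409 and 559 CPM with 5-azacitidine and 291, 263 and 376 CPM with the combination. Vehicle mouse 3 was the highest of all 12 and PD-901 mouse 2 the lowest. The log2 change was -0.32 ± 0.31 (SE, adjusted p = 0.57 by edgeR) with the combination and -0.62 ± 0.31 (adjusted p = 0.96) with PD-901. Without vehicle mouse 3 the first of these was 0.12, and without the 4 libraries lowest in Lyz2 it was -0.66.

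The P stalk, which recruits the elongation factors, consists of Rplp0 with Rplp1 and Rplp2. Per kilobase of exon, Rplp1 had the highest mean level of all members, 2249 CPM per kilobase, followed by Rplp0 with 1305, Rps3a1 with 1114 and Rps2 with 956. The length is that of all annotated exons of a gene, 1830 bases for Rps2 and 1659 for Rplp0. The transcripts used for their coding lengths have 998 and 1358 bases. This order, like the other levels per kilobase given here, thus depends on the annotation. Rplp0 was at 1629, 1802 and 2124 CPM with vehicle, 2033, 2043 and 1899 CPM with PD-901, 2205, 2391 and 2578 CPM with 5-azacitidine and 2683, 1920 and 2669 CPM with the combination. The 5-azacitidine mice were separate from vehicle and the combination mice were not. The log2 change with the combination was 0.39 ± 0.16 (SE, adjusted p = 0.117 by edgeR). For Rplp1 it was 0.37 ± 0.19 (adjusted p = 0.215) and for Rplp2 it was 0.15 ± 0.18 (adjusted p = 0.661).

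Genes known from Diamond-Blackfan anaemia or from the control of p53 had positive changes that did not pass the test. Rps19, the gene most often mutated in that anaemia, was at 280, 315 and 367 CPM with vehicle and at 421, 342 and 364 CPM with the combination. The groups overlapped, with a log2 change of 0.23 ± 0.15 (SE, adjusted p = 0.35 by edgeR). Rpl5 and Rpl11, which bind Mdm2 together with 5S rRNA, had log2 changes of 0.39 ± 0.15 (adjusted p = 0.0951) and 0.26 ± 0.16 (adjusted p = 0.316). For Rpl5 the values were 434, 518 and 559 CPM with vehicle and 743, 588 and 656 CPM with the combination, without overlap. Rps14, a gene lost in a subtype of myelodysplastic syndrome, had a log2 change of 0.30 ± 0.19, Rps24 of 0.23 ± 0.16 and Rps26 of 0.24 ± 0.16. Without the 4 libraries lowest in Lyz2 the change of Rps19 was -0.0126. Rpl35a had 0.05 ± 0.17 (-0.33 without these libraries), and its 3 combination mice lay below the 3 mice of 5-azacitidine.

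The paralogs had measured levels far below those of their partners. Per kilobase, Rpl22l1 was at 19.1 CPM and Rpl22 at 82.5, Rpl7l1 at 33.2 and Rpl7 at 410, Rps27l at 43.5 and Rps27 at 316, and Rpl36al at 2.03 and Rpl36a at 150. Rpl36al shares 24.5% of its exon bases with another gene model on the same strand, Gm49383, so its level is uncertain. Rpl3l, the form of Rpl3 found in muscle, had 5 to 33 counts per library and Rpl39l, known from testis, 2 to 26. Rpl3l was at 1.04, 0.788 and 1.10 CPM with vehicle and at 0.254, 0.458 and 0.236 CPM with the combination, so all combination mice were lower. Its log2 change of -1.61 ± 0.74 (SE) did not pass (adjusted p = 0.17 by edgeR). Rpl22l1 was at 32.1, 32.7 and 34.0 CPM with vehicle and at 46.7, 40.3 and 43.1 CPM with the combination, also without overlap (log2 change 0.40 ± 0.20, adjusted p = 0.209). Rpl22, its partner with a role in T cell development, was at 176, 220 and 210 CPM and at 330, 228 and 256 CPM (log2 change 0.43 ± 0.17, adjusted p = 0.104). Paralogs and pseudogenes are close in sequence, and the counting of reads that map to more than 1 place was not analysed here.

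Among the core subunit genes, the 3 lowest levels were those of Rpl13a with 19.5 CPM per kilobase, Rps10 with 4.05 and Rpl24 with 1.78. Each shares exon bases with another model on the same strand, 29.4% for Rpl13a, 20.6% for Rps10 and 47.0% for Rpl24. Only 1 other member, Rpl36al, shared more than 20% on the same strand (24.5%). With models on the opposite strand, Rpl35 shared 66.2% of its exon bases, Rpl23a 59.7% and Rpl31 25.3%. For Rps25, Rpl5 and Rpl30 it was 24.8%, 24.3% and 20.4%. How strand and reads over shared exons were treated in counting is not given in the sources used, so the levels of all these genes are uncertain. Of the X-linked genes, Rpl10, which lies near the peptidyl transferase centre, had a log2 change of 0.16 ± 0.14 (SE) with the combination and Rps4x of 0.18 ± 0.17. Rpl36a had 0.37 ± 0.17 and Rpl39, in the exit tunnel, 0.32 ± 0.19. Without the 4 libraries lowest in Lyz2 that of Rpl10 was -0.103. None of these 4 passed (adjusted p = 0.541, 0.558, 0.16 and 0.301 by edgeR). Rps19bp1 was at 10.8, 14.6 and 15.5 CPM with vehicle and at 20.2, 15.5 and 20.8 CPM with the combination, a log2 change of 0.47 ± 0.21 (adjusted p = 0.151).

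The combination was also set against each single drug. Against PD-901 no member was called (0 higher and 0 lower, against 1.69% and 5.12% of all genes). The median log2 change was 0.09 and 67 of 84 were positive. Beside it, the median was 0.01 over all genes and -0.04 over the 2308 other genes at 100 CPM or more. An unadjusted p below 0.05 was found for 5 members (5.95%, against 21.7% of all genes). DESeq2 called 1 gene, Rpl13a, against 4.37% of all genes, and limma-voom called 0. The mice did not overlap for 7 higher genes and 1 lower gene (Rpl3l), against 12.7% and 15.0% of all genes. Rpl4, a large subunit protein that lines the exit tunnel, was at 1612, 1569 and 1476 CPM with PD-901 and at 2180, 1658 and 2042 CPM with the combination. Its log2 change was 0.34 ± 0.14 (SE, adjusted p = 0.164 by edgeR). Without combination mouse 1 the median of the 84 genes was -0.02 and without PD-901 mouse 3 it was 0.00. It was 0.15 without PD-901 mouse 2, 0.19 without combination mouse 2 and 0.20 with counts scaled to the library total alone.

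Against 5-azacitidine the median had the opposite sign, -0.10, and 13 of 84 genes were positive (15.5%). Over all genes the median was 0.0035, with 50.3% positive. The 2308 other genes at 100 CPM or more had a median of -0.09, near that of the members, with 39.3% positive. No member was called (0 higher and 0 lower, against 0.252% and 1.07% of all genes), 2 had an unadjusted p below 0.05 (2.38%, against 15.8% of all genes), and DESeq2 and limma-voom called 0. The mice did not overlap for 0 higher and 3 lower genes (Rpl29, Rpl35a and Rpl37), against 9.10% and 9.54% of all genes. Rpl35a was at 277, 232 and 248 CPM with 5-azacitidine and at 224, 170 and 180 CPM with the combination, a log2 change of -0.40 ± 0.17 (SE, adjusted p = 0.264 by edgeR). The sign of the median rested on single libraries and on the scaling. It was 0.03 without 5-azacitidine mouse 3 and 0.01 without combination mouse 2, and 0.04 with counts scaled to the library total alone, which put the median of all genes at 0.13. It was -0.20 without 5-azacitidine mouse 1, -0.06 without 5-azacitidine mouse 2 and -0.21 without combination mouse 1.

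The test for a departure from additivity asked whether the combination differed from the sum of both single changes on the log2 scale. It called 0 members in either direction, as did DESeq2 and limma-voom, and 0% of all genes, with 2 members at an unadjusted p below 0.05 (2.38%, against 10.7% of all genes). The departure was positive in 4 of 84 genes, with a median of -0.28, beside -0.02 over all genes. Over the 2308 other genes at 100 CPM or more the median was -0.11, with 37.2% positive. It differed by coding length. For other coding genes at this level it was -0.44 under 400 bases (76 genes) and -0.31 at 400 to below 700 bases (271 genes). At 700 bases or more it was -0.07 (1912 genes). The members of these classes had -0.40, -0.28 and -0.18, so in both shorter classes the other genes were no higher than the members. The median of the members was -0.19 without vehicle mouse 1, -0.16 without 5-azacitidine mouse 3 and -0.18 without combination mouse 2. It ranged from -0.40 to -0.16 when a mouse was left out. With counts scaled to the library total alone it was -0.13, with 21 genes positive, and without the 4 libraries lowest in Lyz2 it was -0.14, with 17 positive. Rpl38 had the lowest p among the members (-0.54 ± 0.23 SE, adjusted p = 0.407 by edgeR), followed by Rpl41 (-0.55 ± 0.25, adjusted p = 0.435). All 3 changes against vehicle share the same 3 vehicle mice.

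Ribosomal protein genes with a short coding sequence lay farther below their 5-azacitidine level in the combination than those with a long one. Over the 74 genes at 100 CPM or more, Spearman's rho between coding length and that log2 change was 0.69, and Pearson's r with log2 coding length was 0.56. For 2259 other coding genes at this level rho was 0.32. The points share the same 6 libraries and are not independent. The median log2 change was -0.17 for 25 genes with a coding sequence under 400 bases, -0.07 for 35 genes of 400 to below 700 bases and -0.01 for 14 genes of 700 bases or more. Among the other coding genes the medians of these classes were -0.33 (76 genes), -0.26 (271 genes) and -0.06 (1912 genes), in the same order. Of the same 14 long genes 5 were positive, and of the 25 short genes 0. Against vehicle the medians of the short and the long genes were 0.23 and 0.34 with the combination and 0.43 and 0.36 with 5-azacitidine, the other way round.

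By mouse, the median of the long genes minus that of the short genes was 0.096, 0.158 and 0.182 in the combination mice. In the other 9 mice it ran from -0.134 to 0.0739, so the groups did not overlap in this measure. Rps2, Rpl3 and Rpl4, with coding sequences of 879, 1209 and 1257 bases, had log2 changes of 0.10, 0.09 and 0.09 against 5-azacitidine. Rpl38 and Rpl35a, with 210 and 330 bases, had -0.37 and -0.40. Rpl29, with 480 bases, lay apart at -0.60. The relation was noticed in these data and was not tested.

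**Figure D4:**
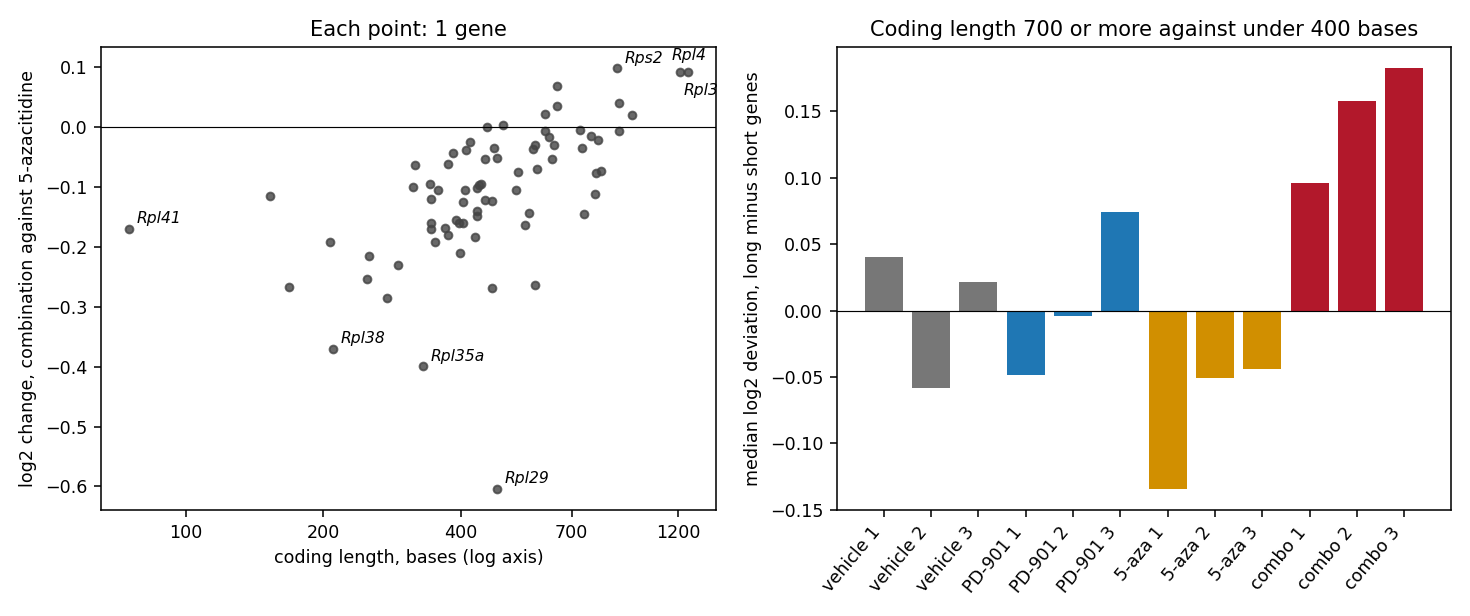
Left, log2 change of the combination against 5-azacitidine by coding length on a log axis for the 74 genes at 100 CPM or more (rho 0.69). Right, for each mouse the median log2 deviation from vehicle of the 14 longest coding sequences minus that of the 25 shortest, which was 0.096 to 0.182 in the combination mice and at most 0.0739 in the others.

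Most lists of other translation genes had positive medians with the combination and with 5-azacitidine. Rpsa, Rack1 and Fau, which fall outside the name rule, were not called with the combination. Rpsa, a small subunit protein also known as the laminin receptor, had a log2 change of 0.40 ± 0.17 (SE, adjusted p = 0.13 by edgeR), Rack1, a scaffold on the small subunit, 0.32 ± 0.16 (adjusted p = 0.212) and Fau 0.02 ± 0.16 (adjusted p = 0.968). Fau is made as a fusion with a ubiquitin-like protein. Of 75 tested mitochondrial ribosomal protein genes, 8 were called higher and 1, Mrpl33, lower, with a median of 0.39. Mrpl18 (0.71, adjusted p = 0.0196) and Mrpl3 (0.49, adjusted p = 0.0208) had the lowest p among them.

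Ribosome biogenesis genes, which process rRNA and assemble the subunits in the nucleolus, had 14 of 28 called higher and 0 lower, with a median of 0.58 (1.49-fold). Dkc1, the pseudouridine synthase of rRNA, was at 79.3 CPM on average with vehicle and at 139 with the combination (log2 change 0.81, adjusted p = 0.00381 by edgeR). Npm1, a nucleolar chaperone whose mRNA also has a TOP motif, was at 527 and 954 CPM (0.86, adjusted p = 0.00655). Ncl, nucleolin, had a log2 change of 0.74 (adjusted p = 0.00798). Among translation initiation factors 12 of 36 were higher and 0 lower, with a median of 0.38, and the lowest p belonged to Eif3i (0.68, adjusted p = 0.00956). Elongation factors and other TOP mRNAs had 5 of 13 higher and 0 lower, with a median of 0.38, among them Npm1 and the elongation factor subunits Eef1d (0.61, adjusted p = 0.0245) and Eef1g (0.60, adjusted p = 0.0273). These shares stand beside 5.78% and 7.98% over all genes. The lists for TOP mRNAs and biogenesis share Npm1.

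RNA polymerase I genes, which transcribe rRNA, had 3 of 14 higher and 0 lower: Polr1c (0.70, adjusted p = 0.00994), Taf1d (0.47, adjusted p = 0.0336) and Rrn3 (0.56, adjusted p = 0.034). Regulators of TOP translation and of ribosome synthesis, the mTORC1 and Myc list, gave 0 of 17 in edgeR and a median of 0.12. At an unadjusted p below 0.05 there were 4 of them (23.5%, against 27.5% of all genes). Larp1, the TOP repressor under mTORC1, had a log2 change of 0.44 ± 0.18 (SE, adjusted p = 0.112). Myc, named here after its value was seen, had 0.29 ± 0.15 (adjusted p = 0.229). Of 11 genes that sense or carry unassembled ribosomal proteins, 2 were higher, Nap1l1 and Heatr3, the import factor of Rpl5 (0.59, adjusted p = 0.0373). Nap1l1 is also on the list of TOP mRNAs, so its call counts in both lists. Rrs1 is shared with the biogenesis list. Trp53, which encodes p53, had 0.36 ± 0.13 (adjusted p = 0.0913). With PD-901 alone and with 5-azacitidine alone, 0 genes of all these lists were called by edgeR. The shares of all genes called higher were 0% and 0.00572%. At an unadjusted p below 0.05 there were, with 5-azacitidine, 31 of 75 mitochondrial ribosomal protein genes, 7 of 13 TOP mRNAs, 20 of 36 initiation factors and 16 of 28 biogenesis genes. These are 41.3%, 53.8%, 55.6% and 57.1%, against 15.3% of all genes. With PD-901 there were 13, 0, 1 and 1 (17.3%, 0%, 2.78% and 3.57%, against 4.88% of all genes). The medians with 5-azacitidine were 0.38 for mitochondrial ribosomal proteins, 0.39 for TOP mRNAs, 0.32 for initiation factors and 0.39 for biogenesis, next to 0.37 for the ribosomal protein genes. They were 0.22 for RNA polymerase I, 0.17 for the sensors of unassembled proteins and -0.05 for the mTORC1 and Myc list, which was at -0.04 with PD-901.

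**Figure D5:**
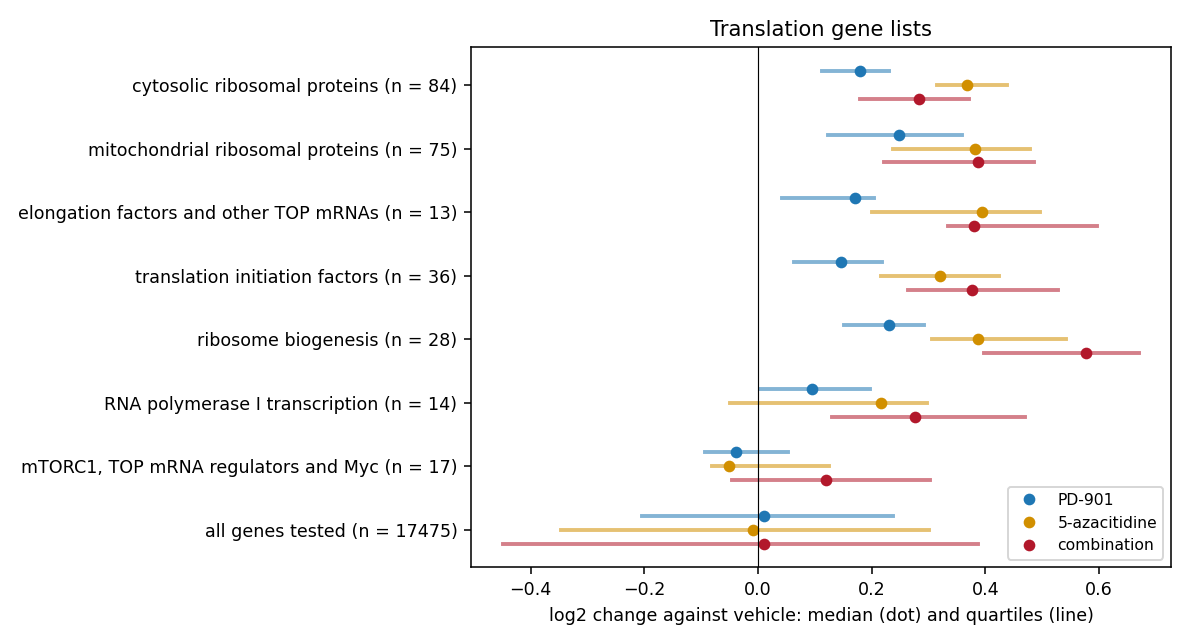
Median (dot) and quartiles (line) of the log2 change against vehicle for lists of translation genes and for all genes tested, in the 3 treated groups. With 5-azacitidine the medians of the ribosomal protein and biogenesis lists are 0.37 and 0.39, while with the combination they are 0.28 and 0.58; all changes share the 3 vehicle mice.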

How the data were processed

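Counts of reads per gene, not normalized, were deposited by the authors as 1 table for the 12 mice. They were made with STAR 2.7.2a and featureCounts of Subread 1.6.5 on mm10 after bcl2fastq, as far as the submitters' processing notes tell. The treatment of strand, of multiple mapping and of shared exons is not given in the sources used. Genes were filtered with filterByExpr (minimum count 10, minimum total 15), scaled by TMM (factors 0.929 to 1.07) and tested in R 4.3.3 with edgeR 4.0.16 (quasi-likelihood, robust, 1 mean per group, 8 residual degrees of freedom). Tests were two-sided, with Benjamini-Hochberg adjustment over 17475 genes per contrast and a threshold of 0.05. The p values measure the spread between these mice. Alternatives used DESeq2 1.42.0, limma 3.58.1, other scalings and filters, and left out each mouse. Scripts were tested on simulated data.

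The members and lists were chosen with earlier results of these data known. Named members are, per contrast, the 5 with the largest change, the 5 with the smallest and the 5 with the lowest p, with the P stalk, genes of Diamond-Blackfan anaemia or p53 control, paralog pairs and X-linked genes. Up to 4 genes with the lowest p are named per other list. Rpl10a, Rps18, Rpl37 and Mrpl33 were named after their values were seen. Coding lengths are from GENCODE M21. The RefSeq windows matched 65 members and 20 had none.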

Additional observations from a re-analysis of the deposited data

How the results depend on the processing

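No paired analysis was possible because the labels, which call the replicates matched, do not say which mice were matched and give no numbers that groups share. The count of members higher in the combination than in vehicle, 4 with edgeR (5.78% of all genes), was 14 with total counts and no TMM factor (8.15%), 8 without the low count filter (3.11%), 8 with a minimum count of 50 (9.71%), 12 with DESeq2 (8.33%) and 8 with limma-voom (5.69%). It ranged from 1 to 12 when a mouse was left out, while 1.475% to 6.02% of all genes were called higher. Leaving out the 4 libraries lowest in Lyz2, an alternative chosen after seeing the data, gave a median log2 change of 0.09. Rpl13a passed in 12 of 12 fits that left out a mouse (adjusted p up to 0.0493), and Rps27l, Rps2 and Rpl3 each passed in 8. With 5-azacitidine against vehicle, 0 members became 4 without the filter (0.653% of all genes) and 5 with DESeq2 (1.67%). With the combination against PD-901, 0 became 1 with no TMM factor (3.33%) and 1 with DESeq2 (4.37%). It was 0 to 1 when a mouse was left out (0.188% to 2.26%). The joint test called 1 member, against 6.96% of all genes. Its count was 2 with no TMM factor, 9 without the filter, 2 with a minimum count of 50, 9 with DESeq2 and 3 with limma-voom. It was 0 to 4 when a mouse was left out (0.0212% to 8.84%). The shares of all genes in the other joint fits are not given here, so these counts do not tell whether calls rose among the members alone. The other counts of members stayed at 0 under all these alternatives. Without the 4 libraries the positive log2 changes fell from 83 to 78 of 84 with 5-azacitidine and from 81 to 61 with the combination. Among named members the sign turned with 5-azacitidine for Rpl10 (-0.0423), Rpl24 (-0.600), Rpl23a (-0.0310) and Rps10 (-0.356). With the combination it turned for Rpl10 (-0.103), Rpl24 (-0.0694), Rps15a (-0.0978), Rpl38 (-0.250), Rplp2 (-0.0364), Rps19 (-0.0126), Rpl35a (-0.328), Rpl36al (-0.163) and Rpl7l1 (-0.0164). With no TMM factor it turned for Rps10 with 5-azacitidine (-0.0140), and with limma-voom for Rpl36al with the combination (-0.0715). Rpl23a with the combination was 0.0834 with no TMM factor, 0.0113 with scaling without the members, 0.0015 without the filter and 0.0042 with only the groups compared. When a mouse was left out, the change with 5-azacitidine ranged from -0.157 to 0.783 for Rpl24, -0.161 to 0.311 for Rps10 and -0.296 to 0.295 for Rpl3l. With the combination it ranged from -0.0467 to 0.128 for Rps15a, -0.0761 to 0.130 for Rpl38, -0.0634 to 0.0889 for Rpl23a, -0.51 to 0.12 for Rpl29, -0.0773 to 0.222 for Rpl35a and -0.503 to 0.280 for Rpl36al. With no TMM factor the median of all genes shifted to 0.11 for the combination against PD-901, and to 0.13 against 5-azacitidine. The causes were not tested. Few counts limit Rpl3l, Rpl39l, Rpl24, Rpl36al and Rps27rt.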
